A study of Homo sapiens with 8 samples.

Results

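The cytosolic and mitochondrial chaperones were followed in CAKI1, a human cell line established from a renal carcinoma, in 4 controls and in 4 samples that had received hLcn-2. They comprise the HSP70 genes with their HSP110 relatives (HSPA and HSPH), the small heat shock proteins (HSPB), the cytosolic HSP90 genes (HSP90A), the mitochondrial chaperonins (HSPD and HSPE), the J proteins (DNAJA, DNAJB and DNAJC) and the BAG cochaperones. The members were chosen by gene symbol alone, and the chaperones HSPA5, DNAJB9, DNAJB11, DNAJC3 and DNAJC10 of the endoplasmic reticulum and the HSPB1-associated protein HSPBAP1 were left out. The rule found 66 of the 16782 genes in the deposited table, of which 63 code for proteins. The other 3 are noncoding RNAs named as antisense to a DNAJC gene. In the GENCODE annotation only DNAJC27-AS1 overlaps exons of the gene it is named after. All but DNAJB7 passed the expression filter, a normalized count of at least 1 CPM (counts per 1000000 reads) in at least 2 samples, so that 65 of the 15593 genes tested were members.

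hLcn-2 is lipocalin-2 in its iron-loaded (holo) form, here a recombinant human protein produced in E. coli and given at 5 µg/mL for 24 h. All cells, controls included, had been starved of serum for 24 h beforehand, and the control cells received no hLcn-2. Samples carry the numbers 1 to 4 in both groups. Nothing in the labels says that they came from separate cultures, so that the p-values measure only the spread between these samples, which may be technical. The line is a single cell line, and the study asked which genes iron-bound lipocalin-2 changes in renal tumour cells.

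Chaperones bind unfolded stretches of other proteins and keep them from clumping until they fold. HSP70 does this in cycles of ATP hydrolysis that J proteins start and that nucleotide exchange factors such as the BAG and HSP110 proteins end, HSP90 takes over clients at a late step, and HSP60 with HSP10 forms a folding chamber inside mitochondria. Small heat shock proteins hold unfolded clients without ATP, and HSPB8 works in a complex with BAG3 and HSP70 that delivers damaged proteins to autophagy. Many of these genes are switched on together by the heat shock factor HSF1, which binds arrays of the 5-base unit nGAAn in their promoters.

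The promoter sequences of 4 members are shown as examples, and all 4 hold the HSF1 pairs described here. HSPB8 was the coding member with the highest log2 fold change, HSPA1A encodes the stress-inducible HSP70, HSP90AA1 the stress-inducible HSP90, and HSPA8 the constitutive HSP70. Each line gives the 250 bases before a RefSeq transcription start on GRCh38.p14, 5′ to 3′ on the strand of the gene. Capitals mark a pair of HSF1 units in opposite orientation, GAANNTTC or TTCNNGAA, each of which reads the same on both strands. Of members not shown, the windows of HSPA13 and HSPH1 held 0 such pairs and that of HSPB1 held 1. DNAJB1 had 2 in its window at chr19:14518398-14518647 and 0 in its other windows. The choice of these 4 thus shows no link between pairs and response.

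HSPB8: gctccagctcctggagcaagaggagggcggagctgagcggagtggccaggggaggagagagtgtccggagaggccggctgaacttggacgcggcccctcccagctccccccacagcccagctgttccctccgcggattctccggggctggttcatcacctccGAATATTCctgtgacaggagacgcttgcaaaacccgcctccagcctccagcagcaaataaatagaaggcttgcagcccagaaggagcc
HSPA1A: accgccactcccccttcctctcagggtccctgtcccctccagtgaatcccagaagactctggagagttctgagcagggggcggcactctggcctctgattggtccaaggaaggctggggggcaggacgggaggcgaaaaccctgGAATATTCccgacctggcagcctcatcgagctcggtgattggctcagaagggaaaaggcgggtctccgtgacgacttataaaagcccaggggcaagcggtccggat
HSP90AA1: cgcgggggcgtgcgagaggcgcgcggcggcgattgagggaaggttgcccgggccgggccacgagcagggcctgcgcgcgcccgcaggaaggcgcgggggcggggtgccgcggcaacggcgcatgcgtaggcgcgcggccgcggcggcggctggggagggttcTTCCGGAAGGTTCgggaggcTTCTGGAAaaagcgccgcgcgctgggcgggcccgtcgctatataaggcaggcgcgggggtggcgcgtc
HSPA8: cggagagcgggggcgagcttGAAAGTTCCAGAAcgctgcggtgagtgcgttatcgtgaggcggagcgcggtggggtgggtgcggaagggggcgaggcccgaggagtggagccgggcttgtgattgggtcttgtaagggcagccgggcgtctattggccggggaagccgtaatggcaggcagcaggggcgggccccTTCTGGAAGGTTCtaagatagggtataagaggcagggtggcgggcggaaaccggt

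The window of HSPB8 lies at chr12:119178681-119178930 (plus strand) and holds 1 such pair, GAATATTC, which begins at position -88 counted from the start. The HSPA1A window, chr6:31815293-31815542 (plus strand), holds the same 8 bases at position -106. At the second of its RefSeq starts HSP90AA1, chr14:102087045-102087294 (minus strand), has 3 overlapping or neighbouring pairs, and HSPA8, chr11:123062137-123062386 (minus strand), has 4. The window of the other HSP90AA1 start, chr14:102139750-102139999, holds 0 pairs, and which start these cells use was not tested. GAANNTTC was found in 16 of the 58 members with a RefSeq window, against 7.05% of all 27305 genes with one, where a gene with several starts was counted once. It was present in 9 of the 14 members that are textbook HSF1 targets and in 7 of the other 44. TTCNNGAA was found in 9 members (8.12% of all genes). Runs in which both pairs overlap, so that 3 units alternate in orientation, were found in 6 members (0.557% of all genes), namely HSPA6, HSPA8, HSP90AA1, HSP90AB1, HSPD1 and DNAJB6. CCAAT stood on either strand in 19 members (37% of all genes). The ATF4-type letters TGATGNAA stood in 2 (3.89% of all genes), HSPA4L and DNAJA4. A match of letters is a description of the window and does not show that a factor binds there.

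The depth differed widely. The reads recovered from the deposited values added up to between 1501563 (control 4) and 13953090 (control 1) per library, and 3 reads were worth 1.98 CPM in the shallowest library. Of the genes chosen to check the renal origin of the line, PAX8 (201 to 245 CPM) and VIM (1302 to 2181 CPM) were present in every sample. So were KRT18 (62.7 to 133 CPM), CDH6 (33.4 to 173 CPM) and KRT8 (25.4 to 43.9 CPM). PAX2 was low, at 1.32 to 5.29 CPM, and KRT19 was not listed. Of 10 leukocyte, endothelial, erythroid and fibroblast markers only COL1A1 was listed, at 2.47 to 6.58 CPM. The number 3 samples of both groups had the largest share of the mitochondrial ribosomal RNA RNR2, 6.22% in the control and 7.10% after hLcn-2, against 3.31% to 4.37% in the other 6. Where a value below is low in both number 3 samples, the part of this difference in it was not tested.

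Between the groups no member passed the test in limma (Benjamini-Hochberg adjustment over all genes tested) without regard to the sample numbers, and neither did any other gene (0% of genes tested, with 355 at an unadjusted p of 0.05 or less, 4 of them members). Same-numbered samples shared deviations from their group means, so the fit with the number as a block, called the paired fit here, is given beside the unpaired one. In the paired fit 44 genes passed (0.282%), and HSPB8 was the only member among them. With the block, edgeR's quasi-likelihood test on the recovered reads called 233 genes (1.49%), of which HSPB8 and HSPA13 were members. Without the block the tests of edgeR and DESeq2 called 0 genes, with 324 and 284 at an unadjusted p of 0.05 or less. Over all 65 members the median log2 fold change was -0.018, and over all genes tested it was 0.00083. Thus the members as a whole lay close to the other genes, with 30 higher and 35 lower in the mean.

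The members differed from the background mainly on the lower side, and there mostly in the textbook HSF1 targets. In the paired fit 12 members (18.5%) were lower at an unadjusted p of 0.05 or less, against 5.53% of all genes, and 5 members (7.69%) were higher, against 6.65% of all genes. Similarly, 12 members (18.5%) were lower in all 4 pairs of same-numbered samples, against 10.9% of all genes, while 7 (10.8%) were higher in all 4 pairs, against 9.93%. Of the 12 lower at the unadjusted threshold, 8 were textbook HSF1 targets. Among the 51 other members 4 (7.84%) were lower and 5 (9.8%) higher at that threshold. In all 4 pairs 6 of the 51 (11.8%) were lower and 6 (11.8%) higher, so that these 51 lay near the background. Apart from HSPB8, no member passed the adjusted threshold in limma with the block.

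**Figure D1:**
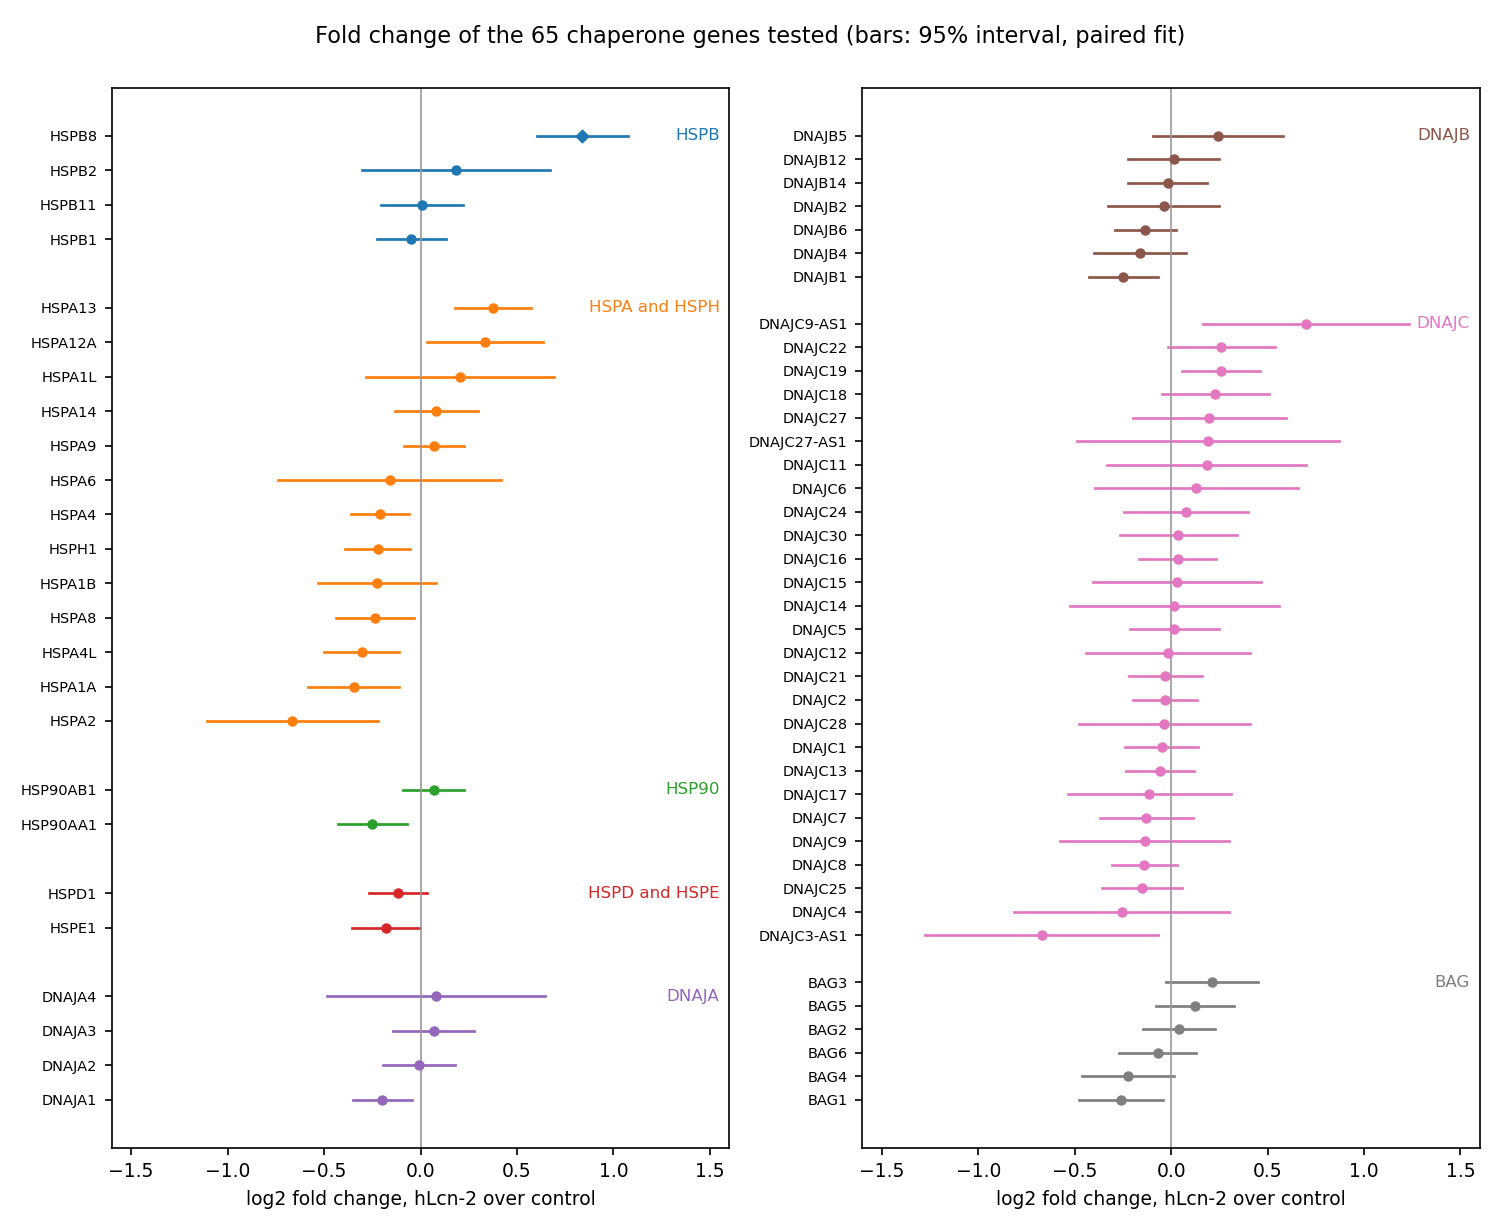
Log2 fold change (x axis, hLcn-2 over control, on log2(CPM + 1)) of the 65 members tested, grouped and coloured by family, with points for the estimate and bars for its 95% interval in the paired fit. The diamond marks HSPB8, the member with an adjusted p under 0.05, whose interval runs from 0.60 to 1.08, while most intervals of the J proteins cross 0.

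Among the small heat shock proteins HSPB8 rose in the paired fit and the other members did not pass. HSPB8 (ENSG00000152137, GENCODE position chr12:119171555-119224855 on the plus strand of GRCh38) was at 52.5, 44.0, 39.5 and 18.4 CPM in controls 1 to 4. After hLcn-2 it was at 121, 73.4, 64.2 and 31.7 CPM in the samples of the same numbers. The value was higher in all 4 pairs, and the number 4 sample was lowest and the number 1 highest in both groups, so that the groups overlapped: hLcn-2 sample 4 lay below 3 of the controls. The differences within the pairs were 1.19, 0.72, 0.69 and 0.75 on the log2(CPM + 1) scale. The log2 fold change was 0.84, a fold of 1.79 with a 95% interval of 1.52 to 2.11 in the paired fit.

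For HSPB8 the adjusted p was 0.9999 in limma without the block (standard error 0.38), 0.0169 with it (standard error 0.11) and 0.000707 in edgeR with the block. Between the unpaired groups the two-sided exact permutation test gave p = 0.171. The paired call was lost without the intensity trend of limma (adjusted p = 0.443), with all libraries thinned to the depth of the shallowest (log2 fold change 0.68, adjusted p = 0.0742), and without the number 2 or the number 3 pair (adjusted p = 0.0836 and 0.0676). It held without the number 1 or the number 4 pair (adjusted p = 0.0303 and 0.0373). In control 4 the value rests on 28 reads, and a gene without a symbol, ENSG00000256884, overlaps an exon of HSPB8 on the opposite strand.

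HSPB1 (HSP27), which caps actin filaments and is the best known stress-inducible small heat shock protein, was at 523, 496, 418 and 576 CPM in the controls and at 415, 491, 453 and 592 CPM after hLcn-2. It was lower in 2 pairs and higher in 2, with a log2 fold change of -0.05 and a 95% interval of -0.23 to 0.13 in the paired fit. HSPB2, expressed mainly in muscle, had 4.61 to 10.8 CPM and a log2 fold change of 0.18 (interval -0.30 to 0.67), and its exons overlap those of CRYAB on the opposite strand. HSPB11, which despite its name belongs to the transport machinery of cilia, lay at 60.5 ± 15.1 (SD, n = 4) CPM in controls and 60.3 ± 13.3 (SD, n = 4) CPM after hLcn-2. CRYAB itself, alpha-B-crystallin, a close relative of HSPB8, averaged 31.1 CPM in controls and 27.7 CPM after hLcn-2, and its value was lower in 3 of 4 pairs. Whether HSPB8 differed from its relatives in its response was not tested.

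**Figure D2:**
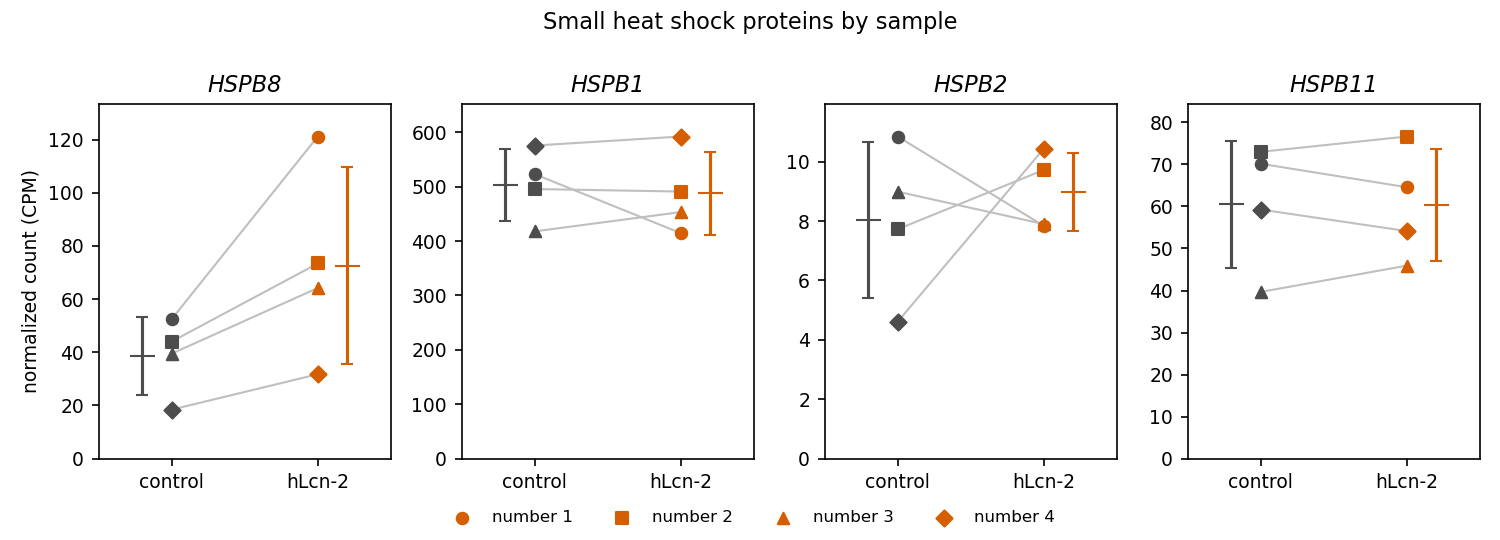
Normalized counts (y axis, CPM, each axis from 0) of the 4 small heat shock protein genes in control (grey) and hLcn-2 (orange) samples, with a symbol for each sample number, lines joining same-numbered samples and bars for the mean ± SD of 4 samples. All 4 lines rise for HSPB8, with hLcn-2 sample 1 at 121 CPM and control 4 at 18.4 CPM, and the lines of the other genes cross or run flat.

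The partners of HSPB8 in selective autophagy did not pass the test. BAG3, the cochaperone that joins HSPB8 to HSP70, was at 97.3, 119, 62.9 and 57.3 CPM in the controls and at 106, 115, 68.1 and 91.1 CPM after hLcn-2. It was higher in 3 of 4 pairs, at a log2 fold change of 0.21 (interval -0.03 to 0.45, paired adjusted p = 0.479), and the largest difference was in the number 4 pair. In the unpaired fit the log2 fold change was 0.052 without control 4 and 0.40 without control 2. Of 7 other genes of this pathway 6 could be tested: the autophagy receptor SQSTM1, SYNPO2, the filamins FLNA and FLNC, MAP1LC3B and WIPI1. Their log2 fold changes lay between -0.10 and 0.13 with a median of 0.02, and 0 of the 6 had an unadjusted p of 0.05 or less in the paired fit of limma and 0 were called in edgeR with the block.

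Of the HSP70 and HSP110 genes, 8 of 13 had lower means after hLcn-2 and 5 had higher ones, with a median log2 fold change of -0.21. In limma 0 of them passed. At an unadjusted p of 0.05 or less in the paired fit, 6 (46.2%) were lower, against 5.53% of all genes. Higher at this threshold were 2 (15.4%), against 6.65% of all genes. HSPA1A was at 209, 195, 102 and 198 CPM in the controls. After hLcn-2 it was at 156, 130, 112 and 137 CPM. Thus it was lower in 3 of 4 pairs by 0.42 to 0.58 on the log2 scale and 0.14 higher in the number 3 pair, where the control was already low. The log2 fold change was -0.35 (interval -0.58 to -0.11, paired adjusted p = 0.219, edgeR with the block 0.0959). HSPA1B is a near-identical copy of HSPA1A, and how well its reads were told from those of HSPA1A was not tested. It was at 50.8, 59.2, 23.6 and 33.6 CPM in the controls and at 41.5, 34.2, 27.2 and 32.6 CPM after hLcn-2. HSPA1B was also lower in the pairs 1, 2 and 4 and higher in the number 3 pair (log2 fold change -0.23, interval -0.53 to 0.08). In the number 4 pair it was lower by 0.04 only, and without 1 sample its unpaired log2 fold change lay between -0.46 (without control 3) and -0.034 (without control 2).

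HSPA8, the constitutive HSP70 that also uncoats clathrin vesicles, was at 210, 236, 79.5 and 140 CPM in the controls and at 169, 165, 81.0 and 125 CPM after hLcn-2. It was lower in 3 of 4 pairs, at a log2 fold change of -0.24 (interval -0.44 to -0.04, paired adjusted p = 0.323). Both number 3 samples were far below the rest, and the groups overlapped. In the unpaired fit the log2 fold change was -0.55 without control 3, -0.013 without hLcn-2 sample 3 and -0.031 without control 2. The genome holds many processed copies of HSPA8, and how reads that match several places were counted is not given in the sources used here.

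HSPA4, an HSP110-type exchange factor of HSP70, was at 373, 370, 314 and 372 CPM in the controls and at 320, 325, 266 and 325 CPM after hLcn-2. All 4 pairs were lower by nearly the same amount (-0.22, -0.18, -0.24 and -0.20), with a log2 fold change of -0.21 and a paired adjusted p of 0.240. The groups overlapped only because control 3 lay below the hLcn-2 samples of the other numbers. Its relatives behaved alike in sign: HSPH1 (HSP105) was at 334, 388, 212 and 327 CPM in the controls and at 262, 320, 180 and 320 CPM after hLcn-2 (log2 fold change -0.22, interval -0.39 to -0.06), and HSPA4L averaged 75.3 CPM and 61.0 CPM (log2 fold change -0.30, interval -0.50 to -0.11). Both were lower in all 4 pairs, although for HSPH1 the unpaired log2 fold change was -0.40 without control 3 and -0.040 without hLcn-2 sample 3. HSPA2, the HSP70 best known from spermatocytes, had the lowest log2 fold change of the coding members on the log2(CPM + 1) scale, -0.66 (interval -1.11 to -0.22, paired adjusted p = 0.206), and was lower in all 4 pairs. Its means were 17.5 CPM in controls and 11.5 CPM after hLcn-2, and the value after hLcn-2 in the number 3 sample, 4.44 CPM, rests on 9 reads. Without that sample the log2 fold change was -0.31, as it was with thinned reads in the paired fit, and on the scale of edgeR with the block HSPA6, at very few reads, was lower (-0.76 against -0.55).

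HSPA13 went the other way. This HSP70-like ATPase without a substrate-binding domain is associated with microsomes, so that its place among cytosolic chaperones comes from its symbol. It was at 93.4, 107, 86.9 and 90.2 CPM in the controls and at 106, 157, 103 and 130 CPM after hLcn-2. The value was higher in all 4 pairs, although hLcn-2 samples 1 and 3 lay below control 2. The log2 fold change was 0.38 (interval 0.18 to 0.57), with an adjusted p of 0.9999 in limma without the block, 0.110 with it and 0.0394 in edgeR with the block. Leaving out 1 pair at a time moved the adjusted p in the paired fit of limma between 0.123 and 0.451. HSPA9 (mortalin), the HSP70 of mitochondria, was at 651, 752, 554 and 570 CPM in the controls and at 658, 746, 576 and 666 CPM after hLcn-2, a log2 fold change of 0.07 (interval -0.08 to 0.23). HSPA6, a strictly stress-inducible HSP70, was close to the detection limit, between 0 and 2.18 CPM. HSPA12A, a distant relative of HSP70, averaged 49.3 CPM in controls and 64.4 CPM after hLcn-2. It was higher in 3 of 4 pairs, with the largest difference in the number 3 pair.

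The HSP90 genes had opposite signs. HSP90AA1 was at 3477, 3549, 1581 and 3675 CPM in the controls and at 2681, 2698, 1390 and 3571 CPM after hLcn-2. It was lower in all 4 pairs, at a log2 fold change of -0.25 (interval -0.43 to -0.07, paired adjusted p = 0.240). The difference was -0.37 and -0.40 in the number 1 and number 2 pairs, and -0.04 in the number 4 pair. HSP90AB1, the constitutive form, was at 2688, 2884, 1887 and 2857 CPM in the controls and at 2831, 2911, 1948 and 3138 CPM after hLcn-2. It was higher in all 4 pairs, by 0.01 to 0.14, and its log2 fold change was 0.07 (interval -0.09 to 0.22). Both HSP90 genes were lowest in the number 3 samples of either group. Rows with no symbol in the deposited table include 21 copies of these families by GENCODE name, such as HSP90AA2P and HSP90AB3P, none of which exceeded 51.4 CPM, and the difference between the HSP90 genes was not tested itself.

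**Figure D3:**
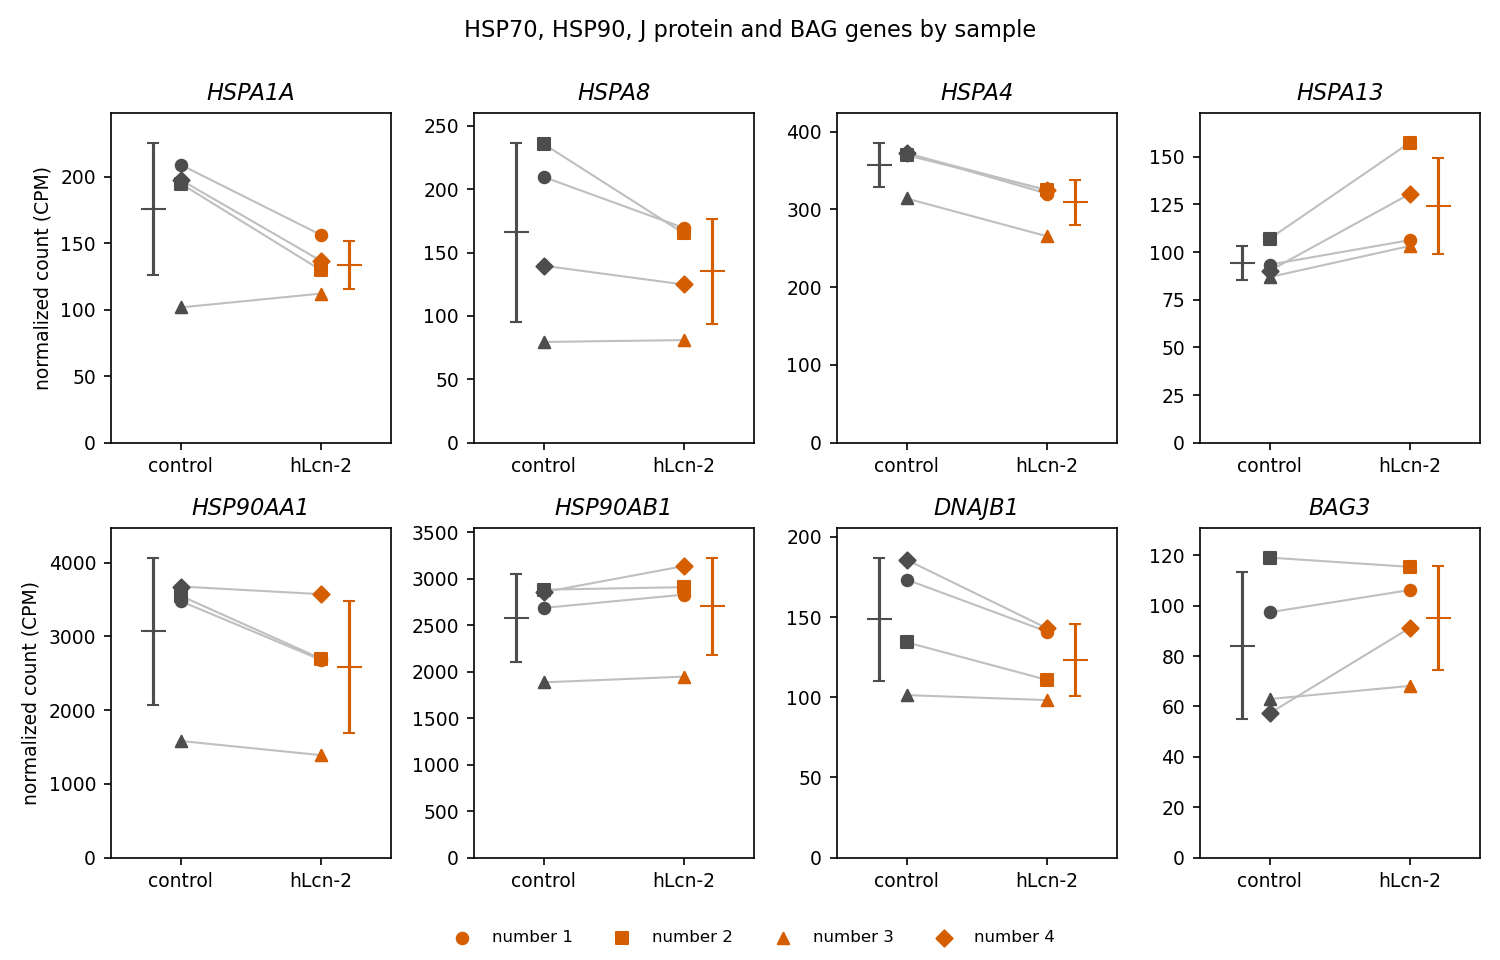
Normalized counts (y axis, CPM, each axis from 0) of 8 HSP70, HSP90, J protein and BAG genes in control (grey) and hLcn-2 (orange) samples, with a symbol for each sample number, lines joining same-numbered samples and bars for the mean ± SD of 4 samples. The number 3 samples (triangles) lie lowest in both groups for HSPA1A, HSPA8, HSPA4, HSPA13, HSP90AA1, HSP90AB1 and DNAJB1, and all lines rise for HSPA13.

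The mitochondrial members went both ways, with 6 higher and 3 lower in the mean and 0 called in limma or edgeR with the block. HSPD1 (HSP60) was at 495, 522, 347 and 455 CPM in the controls and at 464, 468, 312 and 436 CPM after hLcn-2. All 4 pairs were lower, by 0.06 to 0.16, with a log2 fold change of -0.12 (interval -0.26 to 0.03). HSPE1 (HSP10), which shares a promoter with HSPD1, was at 278, 239, 157 and 209 CPM in the controls and at 229, 188, 158 and 195 CPM after hLcn-2 (log2 fold change -0.18, interval -0.36 to 0.00). The genes also overlap each other on opposite strands. DNAJA3 (TID1), the J protein of mortalin, was at 47.2, 49.3, 41.2 and 48.7 CPM in the controls and at 46.0, 51.7, 47.9 and 49.8 CPM after hLcn-2. DNAJC19, a J protein of the inner membrane, averaged 56.6 CPM in controls and 68.0 CPM after hLcn-2, and its value was higher in all 4 pairs (log2 fold change 0.26, interval 0.06 to 0.46, paired adjusted p = 0.282). The 9 mitochondrial members had a median log2 fold change of 0.04, and 1 was higher and 1 lower in all 4 pairs.

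Of the 4 DNAJA members 2 had higher and 2 lower means after hLcn-2, with a median log2 fold change of 0.03. The 7 DNAJB members tested had a median of -0.04, with 2 higher and 5 lower. DNAJA2 and DNAJB2 were nearly level, at log2 fold changes of -0.007 and -0.039. The textbook J proteins of cytosolic HSP70, DNAJB1, DNAJA1 and DNAJB6, had lower means after hLcn-2. DNAJB1 (HSP40), the stress-inducible partner of HSPA1A, was at 173, 134, 101 and 186 CPM in the controls and at 141, 111, 98.2 and 143 CPM after hLcn-2. Its level was lower in all 4 pairs, at a log2 fold change of -0.25 (interval -0.43 to -0.07, paired adjusted p = 0.253). DNAJA1 was at 315, 312, 228 and 297 CPM in the controls and at 284, 263, 200 and 256 CPM after hLcn-2, again lower in all 4 pairs (log2 fold change -0.20, interval -0.35 to -0.05). DNAJB6, a suppressor of polyglutamine aggregation, was at 250, 218, 190 and 292 CPM in the controls and at 236, 202, 177 and 247 CPM after hLcn-2 (log2 fold change -0.13, interval -0.29 to 0.03). In all 3 genes the groups overlapped, with control 3 among the hLcn-2 samples for DNAJA1 and controls 2 and 3 among them for DNAJB1 and DNAJB6.

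DNAJB5 was higher in all 4 pairs, with means of 9.52 CPM in controls and 11.4 CPM after hLcn-2. The 27 DNAJC members had a median log2 fold change of 0.02, with 14 higher and 13 lower, and among them DNAJC22 was higher in all 4 pairs, at 21.1 CPM and 25.1 CPM. The noncoding RNAs DNAJC9-AS1 and DNAJC3-AS1 were the only members whose groups did not overlap, as was the case for 0.891% of all genes on the higher and 0.988% on the lower side. DNAJC9-AS1 lay between 0 and 0.986 CPM in controls and between 1.09 and 2.25 CPM after hLcn-2 (paired adjusted p = 0.274), with at most 23 reads in a library and 0 reads in control 4, where 3 reads were worth 1.98 CPM. DNAJC3-AS1 lay between 5.07 and 10.2 CPM in controls and between 1.97 and 4.99 CPM after hLcn-2 (paired adjusted p = 0.356), with 4 reads in hLcn-2 sample 3. These RNAs are chaperone genes in name only, and DNAJB7, the member not tested, was at 1.98 CPM or less.

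The BAG family, many of whose members release the client by removing ADP from HSP70, was mixed, with 3 members higher and 3 lower. BAG1, which links HSP70 to the proteasome, was at 71.9, 60.2, 84.8 and 59.9 CPM in the controls and at 60.1, 50.4, 58.8 and 59.1 CPM after hLcn-2. Every pair was lower, at a log2 fold change of -0.26 (interval -0.48 to -0.04, paired adjusted p = 0.315), but by only 0.02 in the number 4 pair. BAG4, which also binds TNF receptors, averaged 35.0 CPM in controls and 29.8 CPM after hLcn-2, and its value was lower in all 4 pairs. BAG2, BAG5 and BAG6 had log2 fold changes between -0.07 and 0.12.

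Viewed across families, many of the lower members were on the list of textbook HSF1 targets. That list was drawn up with earlier results of these data known, so its contrast with the other members is a description. HSPA6 and HSPB8, whose windows also hold GAANNTTC, are not on it. Of the 14 members on this list 12 had lower means after hLcn-2, and HSP90AB1 and BAG3 had higher ones. The median log2 fold change was -0.21, against 0.02 for the 51 other members, and 0 of the 14 passed the adjusted threshold in limma or edgeR with the block. At an unadjusted p of 0.05 or less in the paired fit, 8 of the 14 (57.1%) were lower, against 5.53% of all genes, and 0 higher, against 6.65%. The 8 were HSPA1A, HSPA8, HSPA4L, HSPH1, HSP90AA1, HSPE1, DNAJA1 and DNAJB1. In 4 of 4 pairs, 6 of the 14 (42.9%) were lower, against 10.9% of all genes, and 1, HSP90AB1, was higher, against 9.93%. The median differences of the list were -0.28, -0.28, -0.02 and -0.08 in the pairs 1 to 4, so that the lower values came mostly from the number 1 and number 2 pairs. Without the number 3 pair 10 of the 14 were lower in every remaining pair, as were 16.1% of all genes tested, and without the number 1, 2 or 4 pair there were 6, 7 and 6 (15.9%, 16.1% and 19.9% of all genes). The correlation between the 14 genes over the 8 samples had a median of 0.75 and ran from -0.21 to 0.96, a description that includes the shared low values of the number 3 samples. Most of the 14 genes thus varied together and are not separate observations.

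**Figure D4:**
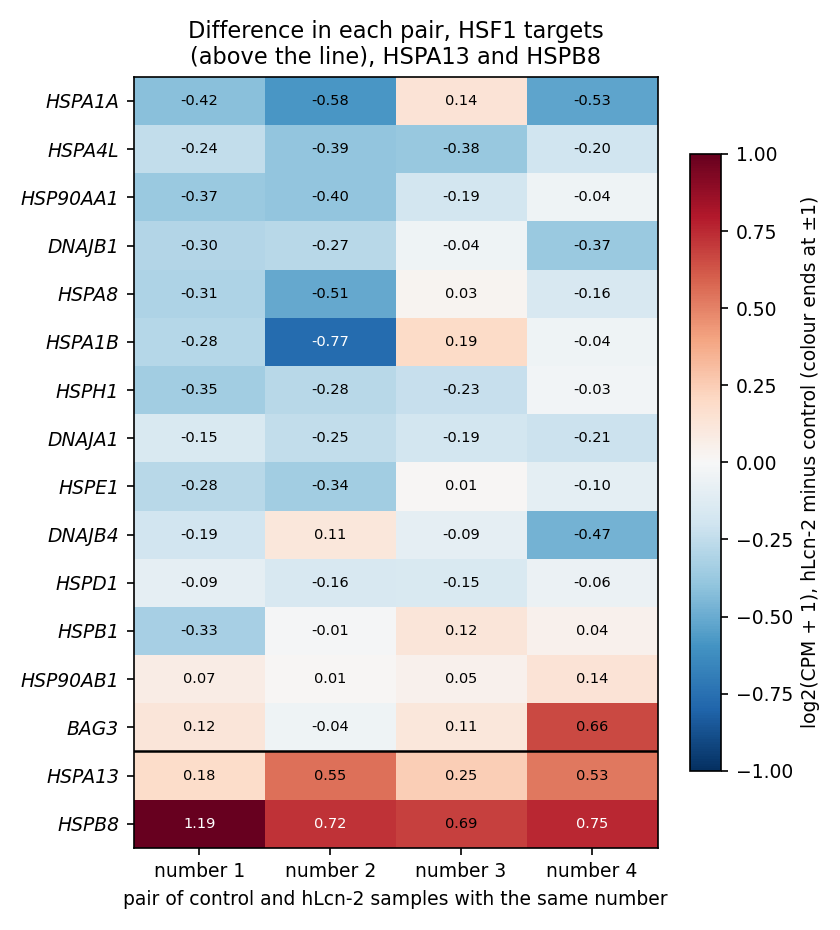
Difference in log2(CPM + 1), hLcn-2 minus control, in each pair of same-numbered samples (columns) for the 14 HSF1 targets (rows above the line, ordered by fold change), HSPA13 and HSPB8. Blue is lower and red is higher after hLcn-2, the colour ends at ±1, and HSPB8 is red in all 4 pairs, with 1.19 in the number 1 pair, while most HSF1 targets are blue in the number 1 and number 2 pairs.

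The HSF1 targets also varied with the sample number. In both groups the number 3 sample was the lowest for 25 of the 65 members (38.5%), against 20% of all genes, and for 11 of the 14 HSF1 targets (78.6%). The summed level of the 14 genes was 8975, 9267, 5301 and 9147 CPM in controls 1 to 4, and 7887, 8011, 5114 and 9148 CPM after hLcn-2. The sum lay far below the rest in both number 3 samples. After hLcn-2 it was lower in the number 1, 2 and 3 pairs and level in the number 4 pair. Most of it came from HSP90AA1 and HSP90AB1, with control means of 3071 and 2579 CPM. The median differences of the 14 genes were -0.28, -0.28, -0.02 and -0.08 in the pairs 1 to 4. Each gene set against its own mean over the 8 samples, the median deviation was -0.40 in control 3 and -0.42 in hLcn-2 sample 3. It lay between 0.18 and 0.32 in the other controls and between 0.01 and 0.09 in the other hLcn-2 samples. HSPB8 was not among these genes: in the number 3 samples it was at 39.5 and 64.2 CPM, above the number 4 samples of either group.

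**Figure D5:**
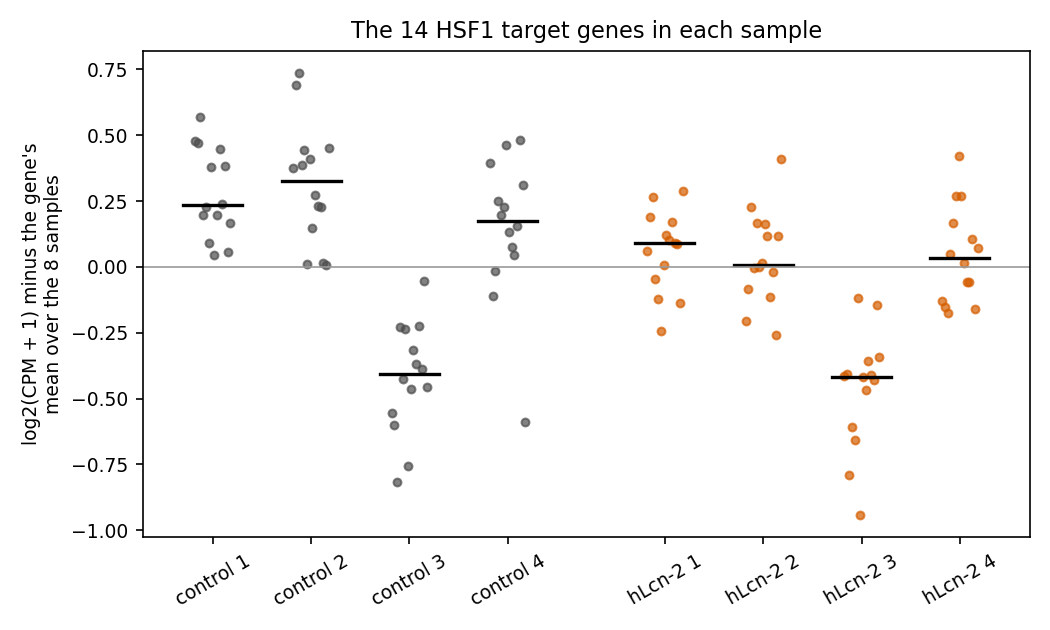
Level of the 14 HSF1 target genes in each sample (x axis), as log2(CPM + 1) minus the mean of the gene over the 8 samples (y axis), with 1 point for each gene and a bar for the median. The medians of control 3 and hLcn-2 sample 3, -0.40 and -0.42, lie below those of all other samples.

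Other chaperone systems, listed in the same way, held 0 called genes in limma or edgeR with the block, and CHORDC1, PFDN1 and CLPX were their only genes with an unadjusted p of 0.05 or less in the paired fit of limma. The cochaperones of HSP90 and HSP70, of which 13 of 15 were tested, had a median log2 fold change of -0.08, with 10 lower and 3 higher. Lower in all 4 pairs were 3 of the 13 (23.1%), against 10.9% of all genes. They were CHORDC1, an HSP90 cochaperone (61.7 CPM in controls and 52.3 CPM after hLcn-2, paired adjusted p = 0.309), and the immunophilins FKBP5 and PPID. The 8 subunits of the TRiC chaperonin, which folds actin and tubulin, had a median of 0.00, and CCT2 and CCT5 were lower in all 4 pairs. Prefoldin, which hands clients to TRiC, had a median of 0.00 over 6 subunits, of which PFDN1 averaged 81.6 CPM and 66.8 CPM (paired adjusted p = 0.329). The mitochondrial partners and proteases, 10 of 12 tested, had a median of 0.06. CLPX, the unfoldase of the ClpXP protease, was higher in all 4 pairs, as were 9.93% of all genes (72.8 CPM and 84.6 CPM, paired adjusted p = 0.359). Its groups did not overlap, as was the case for 0.891% of all genes on the higher side. HSCB, a J protein of iron-sulfur cluster assembly, was lower in all 4 pairs (8.66 CPM and 7.08 CPM). HSF1 itself averaged 6.64 CPM in controls and 6.01 CPM after hLcn-2, and HSF2 47.4 CPM and 47.7 CPM. As in the members, the number 3 samples were lowest in both groups for 11 of the 13 cochaperones tested, 6 of the 8 TRiC subunits and 4 of the 6 prefoldin subunits.

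The genes whose pattern over the 8 samples was most like that of HSPB8 were not chaperones. By Pearson correlation of log2(CPM + 1) they were the integrator subunit INTS14 (0.985), the gamma-secretase subunit NCSTN (0.981), COMMD6 (0.976), TRAF3IP1 (0.973) and PNMA1 (0.972). All 5 were higher in all 4 pairs, like HSPB8, which their choice by correlation over the same 8 values largely fixes. NCSTN was the only one of them that passed in the paired fit of limma (log2 fold change 0.73, adjusted p = 0.0373). INTS14 had 11 reads and NCSTN 16 in the sample where each was lowest, so that these values, like that of HSPB8, rest on few reads in the shallow libraries. The member most like HSPB8 was the noncoding RNA DNAJC9-AS1 (0.905), followed by DNAJC6 (0.770), the J protein of clathrin uncoating. The 8 points share the library, its depth and the sample number.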

How the data were processed

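RNA of 8 samples, 4 controls and 4 with hLcn-2, was read from the 3′ end (QuantSeq with unique molecular identifiers, UMI, single-end, 75 cycles). The authors mapped them with STAR to GRCh38, removed UMI duplicates, counted genes with HTSeq and scaled the counts. Tool versions and the strand setting are not given in the sources used here. The deposited values are a normalized signal per gene on the CPM scale. All of them came out as whole reads, within 0.01 of a read, when divided by the worth of 1 read, which gave the depth and the counts used in edgeR and DESeq2. A decimal comma in 1 cell was read as a decimal point.

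The members and all lists were chosen with earlier results of these data known. Members are the genes whose symbol is HSPA, HSPB, HSPH, HSPD, HSPE, DNAJA, DNAJB or DNAJC followed by a digit, begins with HSP90A, or is BAG1 to BAG6, less the 6 exceptions given above. Genes were named if called with the replicate block, if textbook members of a family, or if among the 3 highest or lowest of a family that moved the same way in all 4 pairs. Others that the text names, such as HSPA6, HSPA12A, HSPB2, HSPB11, CHORDC1, CLPX and HSCB, were chosen after their values were seen.

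Limma 3.58.1 in R 4.3.3 was fitted two-sided, with an intensity trend, to log2(CPM + 1) of every gene that reached 1 CPM in 2 samples or more, with Benjamini-Hochberg adjustment over all genes tested and a threshold of 0.05. Fold changes of genes with few reads are understated on this scale. Pairing comes from the replicate numbers in the labels and was checked by correlating same-numbered samples, as deviations from their group means, over 15593 genes, which gave 0.48, 0.59, 0.61 and 0.31. edgeR 4.0.16 (quasi-likelihood) and DESeq2 1.42.0 were alternatives, beside other pseudocounts, filters and scalings, thinned reads and left-out samples. Fits were also run on simulated counts that had an effect of the sample number built in. Their changed genes moved more than most members here, so this run cannot judge the pairing or smaller changes. Exon overlaps are from GENCODE 44: exons of 13 members overlap a gene on the same strand and those of 29 a gene on the opposite strand, and without the strand setting such reads cannot be told apart. Promoter windows are from RefSeq (GRCh38.p14).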

Additional observations from a re-analysis of the deposited data

Results flagged for a closer look

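In 13 of the 130 groups of 4 samples examined for the 65 members, the lowest or highest sample stood well apart from the rest. Chance would give about 6.5 such groups, and 7 of the 13 were number 3 samples. The gap to the nearest sample is given as a share of the range of the group. Control 3 was far below the other controls for HSP90AA1 (0.905, at 1581 CPM against 3477 CPM in the nearest), HSPA4 (0.952, at 314 CPM), HSPA1A (0.868, at 102 CPM) and the cochaperone BAG2 (0.856, at 66.3 CPM), and far above them for DNAJC3-AS1 (0.834, at 10.2 CPM). The hLcn-2 sample of number 3 was far below the others for HSPA4 (0.922, at 266 CPM) and above them for DNAJC13 (0.976, at 133 CPM).

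The hLcn-2 sample of number 2 was below the others for BAG1 (0.858, at 50.4 CPM) and DNAJB12 (0.892, at 44.0 CPM) and above them for DNAJB4 (0.924, at 50.6 CPM). Control 1 was above the other controls for BAG6 (0.890, at 102 CPM). Control 4, the shallowest library, was above the others for DNAJC17 (0.899, at 6.58 CPM) and below them for DNAJC9-AS1 (0.894, with 0 reads).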

How the results depend on the processing

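Over 27 named members and their alternatives, 559 of 565 values kept their direction, and the 6 that turned belonged to 4 genes when 1 sample was left out of the unpaired fit. The log2 fold change then ranged from -0.14 to 0.026 for HSPB1, from -0.54 to 0.023 for HSP90AA1, from -0.076 to 0.22 for HSP90AB1 and from -0.24 to 0.021 for HSPD1. The cause was not tested. For HSPB8 it ranged from 0.53 to 1.18, and of the genes that kept their sign HSPA4L ranged from -0.43 to -0.15, HSPE1 from -0.33 to -0.058, DNAJA1 from -0.31 to -0.094, DNAJB1 from -0.42 to -0.13 and DNAJB6 from -0.23 to -0.029.

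No gene passed in any unpaired fit. With the replicate block 44 genes and 1 member (HSPB8) passed in limma, 43 and 1 with median-of-ratios scaling as well, 25 and 0 with thinned reads, 0 and 0 without the intensity trend, and 233 and 2 (HSPB8 and HSPA13) in edgeR. Scaling with the block, the block without the trend, and leaving out pairs for the HSF1 targets were added after seeing the data. Leaving out 1 pair from the paired fit left between 0 (without number 3) and 58 genes (without number 4), and between 0 and 1 members. HSPB8 was lost without number 2 or number 3. Its adjusted p over all alternatives ran from 0.000707 to 0.999985. Beyond HSPB8 in limma and HSPB8 and HSPA13 in edgeR, the block changed no call among the members.

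The median log2 fold change of the members, -0.018, lay between -0.081 (without control 3) and 0.021 (without hLcn-2 sample 3) when 1 sample was left out. Depth limits the shallow libraries most: 3 reads were worth 1.98 CPM in control 4 and 1.48 CPM in hLcn-2 sample 3, so differences of DNAJC9-AS1, HSPA6 or DNAJA4 were not detectable there.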
